A study of Rattus norvegicus with 2 samples.

Results

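Urine RNA was examined for 10 genes of exosome formation, named by symbol: the tetraspanins Cd9, Cd63, Cd81 and Cd82, and Tsg101, Pdcd6ip, Sdcbp, Flot1, Chmp4b and Vps4b. Of these, 9 were found among 16484 number-only gene IDs of the deposited table, which lists 113011 features. Chmp4b, a subunit of the filament that pinches off vesicles, was not matched and is not analysed here. RNA was sequenced from the urine of Sprague Dawley rats, 8 weeks of age (post natal day 56 in the labels), in 2 libraries. The library labelled WT stands for sham-operated rats, which had the same surgery without closure of a ureter. The library labelled UUO stands for unilateral ureteral obstruction, in which the right ureter was ligated for 2 weeks so that the kidney scars. Per the study's methods, urine was drawn through a catheter in the ureter and centrifuged before RNA extraction, and it is not stated whether cells or vesicles were separated nor how many animals stand behind each library. With 1 library per group no difference has a replicate check and no test was possible, so each value describes these 2 libraries. The table names its columns with abbreviations, UrRf and Urc, that were read as UUO and WT, and each direction given rests on this reading.

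Exosomes are small vesicles that form when the membrane of an endosome buds inward, giving a multivesicular body, and that are set free when this body joins the cell surface. The budding is driven by the ESCRT complexes, which gather ubiquitin-tagged cargo and cut the neck of the bud, and by routes that need tetraspanins, syntenin or ceramide. Tetraspanins are proteins that cross the membrane several times and gather partners into patches. Cells lining the nephron and the bladder release such vesicles into urine, where Cd9, Cd63, Cd81, Tsg101 and Alix are widely used as vesicle markers. Those are protein markers. The values here are RNA levels, and how they relate to vesicle number was not measured.

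The 4 tetraspanin genes each had a higher FPKM in UUO than in WT urine. FPKM counts the fragments on each kilobase of a transcript and corrects for library size, so that levels of different genes can be set side by side. Cd63, a tetraspanin of late endosomes and lysosomes, measured 90.0 FPKM in WT against 165 FPKM in UUO urine, a ratio of 1.84. It was the highest of the 9 genes in UUO urine, at percentile 98.7 of all genes detected there (FPKM of at least 1), and at percentile 90.9 in WT urine. Cd81, a partner of integrins and immune receptors at the cell surface, measured 8.16 FPKM in WT against 22.5 FPKM in UUO urine, a ratio of 2.76. Cd82, a tetraspanin known as a suppressor of metastasis, measured 27.4 FPKM in WT against 34.5 FPKM in UUO urine, a ratio of 1.26. Cd9, a tetraspanin of epithelial, platelet and egg membranes, was listed at 0 in WT urine and had an FPKM of 17.1 in UUO urine.

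A listed 0 can be a failed estimate, and Gapdh, which cells of all kinds use, measured only 0.406 FPKM in WT and 0.367 FPKM in UUO urine. No ratio is therefore given for Cd9. By the steps in the deposited values its UUO level stood for 41.8 fragments per kilobase of effective length, and the smallest step in WT urine, 1 fragment on 1 kilobase, was 0.473 FPKM. Cd9 was 1 of 1903 number-only genes listed at 0 in WT and at 1 FPKM or more in UUO urine, against 166 genes with the opposite pattern. In UUO urine it stood between Cd81 and Tsg101.

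**Figure D1:**
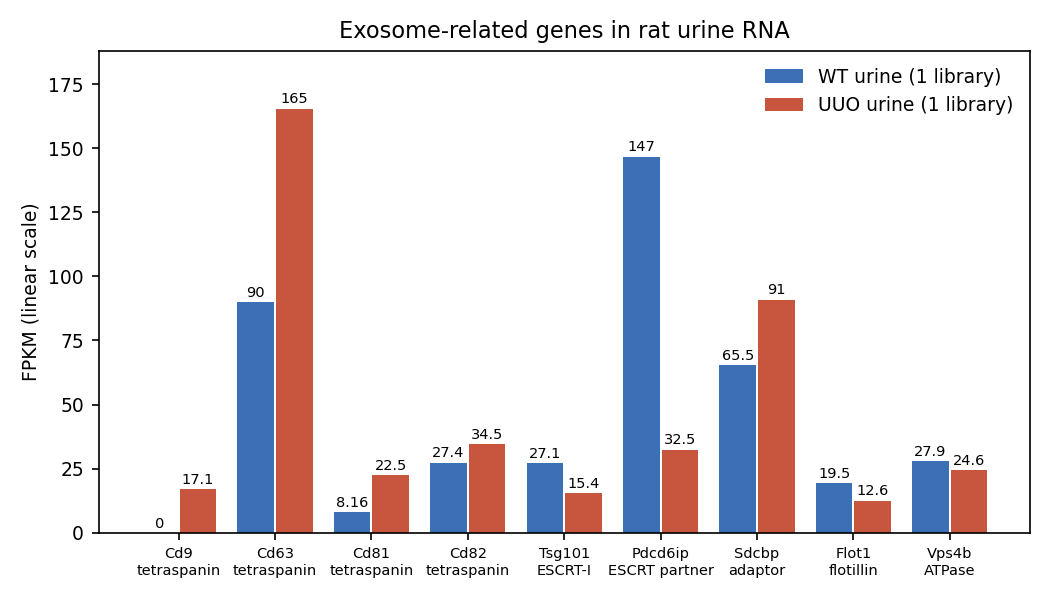
FPKM (linear scale, bars from 0) of the 9 matched genes in the WT and the UUO urine library, 1 bar per gene and library, with no error because there is 1 library per group. The 4 tetraspanins and Sdcbp are higher in UUO urine, and Pdcd6ip has the highest bar in WT (147) and 32.5 in UUO urine.

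The ESCRT genes did not share this direction. Pdcd6ip encodes Alix, which links Tsg101 and syntenin to the cutting filament. It measured 147 FPKM in WT against 32.5 FPKM in UUO urine, 4.52-fold lower. It was the highest of the 9 genes in WT urine, at percentile 95.02 of detected genes, and the fourth in UUO urine. Tsg101, the ESCRT-I subunit that binds ubiquitin and Alix, measured 27.1 FPKM in WT against 15.4 FPKM in UUO urine, a WT over UUO ratio of 1.76. Vps4b, an ATPase that takes the ESCRT-III filament apart, measured 27.9 FPKM in WT against 24.6 FPKM in UUO urine, a WT over UUO ratio of 1.13. These were thus 1 gene far apart and 1 nearly level between the libraries, with Tsg101 between them.

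The remaining members, an adaptor and a raft protein, both lay within 2-fold. Sdcbp encodes syntenin, an adaptor that ties syndecans to Alix. It measured 65.5 FPKM in WT against 91.0 FPKM in UUO urine, a ratio of 1.39, which made it the third of the 9 genes in WT and the second in UUO urine. Flot1, a scaffold protein of lipid rafts, measured 19.5 FPKM in WT against 12.6 FPKM in UUO urine, a WT over UUO ratio of 1.55. It was the lowest of the 9 genes in UUO urine.

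Differences were next expressed as log2(FPKM + 1) in UUO minus WT, where 1 stands for a 2-fold change and low values are understated. On this scale 2 of the 9 members passed 2-fold upward (Cd9 at 4.18 and Cd81 at 1.36), 1 passed it downward (Pdcd6ip at -2.14), and 6 lay within it. Cd63 was at 0.87, Sdcbp at 0.47, Cd82 at 0.32, Vps4b at -0.18, Flot1 at -0.60 and Tsg101 at -0.78. Cd9 passed through its UUO value alone and so had to be higher. Among the 9853 number-only genes that reached 1 FPKM in WT or UUO urine, 62.3% passed 2-fold, 25.7% upward and 36.5% downward. The members' 2 of 9 upward lie near the first of these directional shares, and 1 of 9 downward is below the second. The median difference of the 9 members was 0.32, against -0.51 over all 9853 genes, and 6 of the 9 lay above that median. For the 8 members that reached 1 FPKM in both libraries the median was 0.07, against -0.81 for 7218 such genes.

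**Figure D2:**
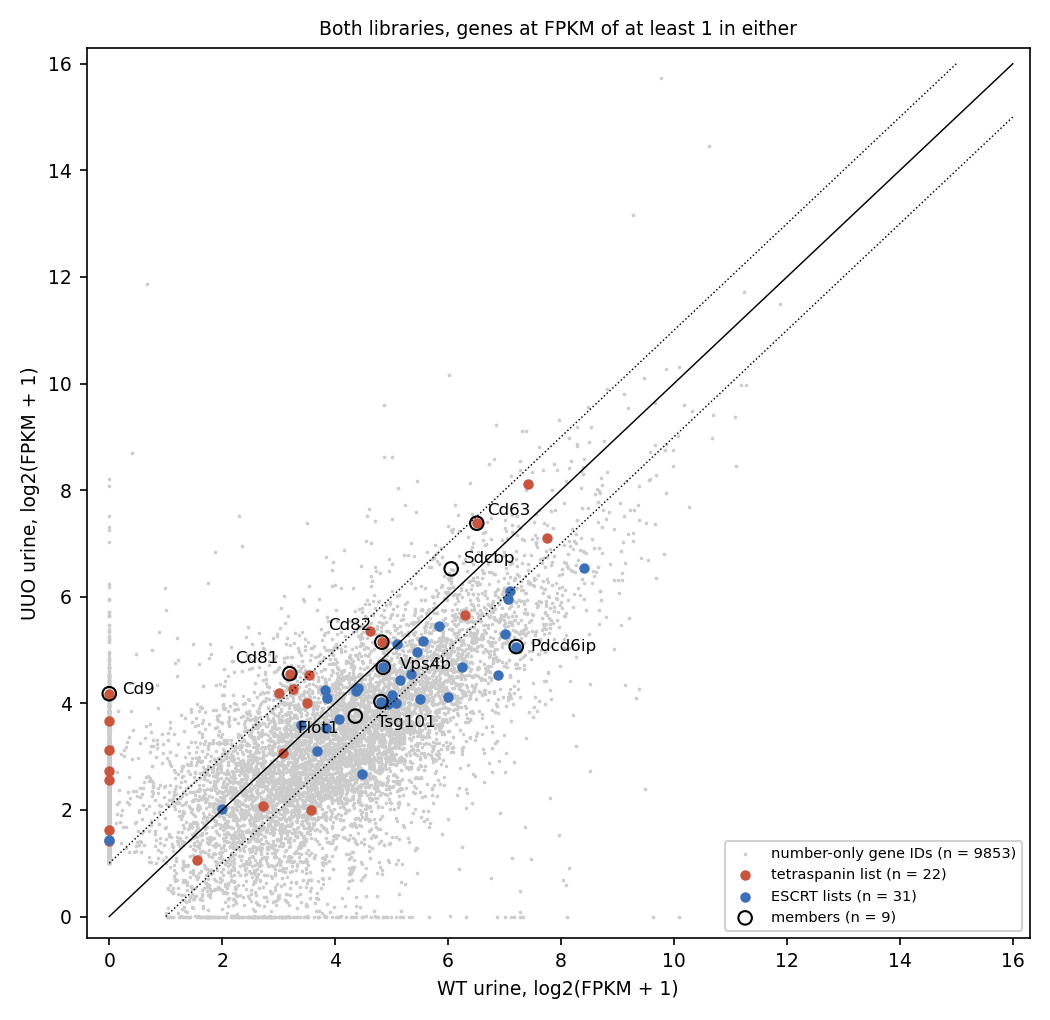
Levels as log2(FPKM + 1) in WT (horizontal) and UUO urine (vertical) for 9853 number-only genes (grey), with the tetraspanin list in red, the ESCRT lists in blue and the 9 members circled. The solid line marks equal levels and the dotted lines 2-fold on this scale, and the column of points at 0 in WT holds Cd9 with other tetraspanins.

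Which genes count as changed depended on how the libraries were set to each other. Rescaling UUO values to equal sums, a median ratio or a common 75th percentile multiplied them by 1.54 to 1.91. As deposited 2534 genes were higher and 3600 lower, with 41.3% of the changed genes higher, and by the median ratio 4338 were higher and 1587 lower, with 73.2% higher. The median over all genes thereby moved from -0.51 to 0.51. All 4 rescalings raise UUO values, so Cd9, Cd63, Cd81, Cd82 and Sdcbp, already higher as deposited, could only stay higher, and this is no sign of stability. Scaling UUO values down was not tried. Pdcd6ip stayed lower under each of the 4, at -1.23 by the median ratio, for its gene entry alone. Its locus sum, at a smaller log2 difference of -1.45 as deposited, was not rescaled. The factors of the 4 rescalings amount to 0.63 to 0.93 on the log2 scale, and each would bring that sum within 2-fold. Tsg101 went from -0.78 to 0.11, Flot1 from -0.60 to 0.29 and Vps4b from -0.18 to 0.73 by the median ratio, so their direction turned with the scaling. Relative to the median of all genes as deposited, Cd9 lay 4.69 above, Cd81 1.87 above, Cd63 1.38 above and Sdcbp 0.98 above. Cd82 lay 0.83 above and Vps4b 0.33 above, while Pdcd6ip lay at -1.63, Tsg101 at -0.27 and Flot1 at -0.09.

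**Figure D3:**
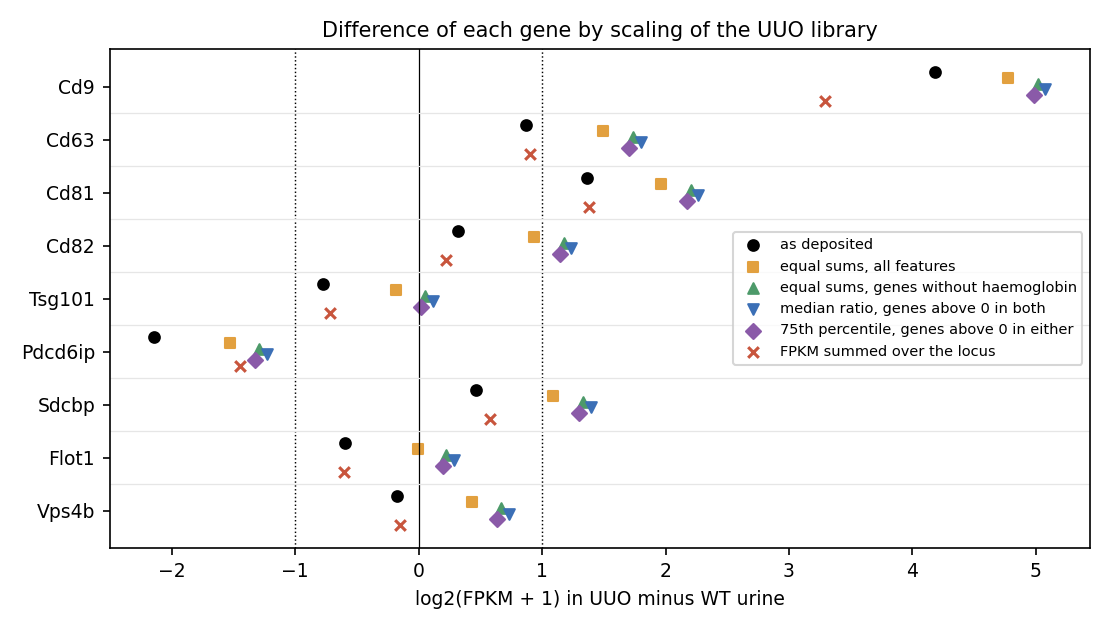
Difference of log2(FPKM + 1), UUO minus WT, for each of the 9 genes as deposited, under 4 rescalings of the UUO library, and with FPKM summed over all features of the locus. Pdcd6ip lies left of 0 in all 6 settings drawn, while Tsg101, Flot1 and Vps4b cross 0. The 4 rescalings all raise UUO values and so move every gene to the right.

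Ratios between genes of 1 library are free of the scaling. The summed FPKM of the 4 tetraspanins was 0.623 times that of Tsg101, Pdcd6ip and Vps4b in WT urine (126 against 202) and 3.31 times in UUO urine (240 against 72.4). These ratios are 5.31-fold apart. Without Pdcd6ip the same comparison gave 2.29 in WT and 5.999 in UUO urine, 2.62-fold apart. Cd63 was 3.33 times Tsg101 in WT and 10.8 times in UUO urine, and 0.614 times Pdcd6ip in WT and 5.10 times in UUO urine. Among the tetraspanins Cd63 was 3.29 times Cd82 in WT and 4.80 times in UUO urine, 1.46-fold apart. Cd82 was 3.35 times Cd81 in WT and 1.53 times in UUO urine, 2.19-fold apart.

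The members shared their loci with 49 noncoding database entries, and reads of a locus are divided among such entries. In WT urine each member other than Cd9 held at least 88.05% of the FPKM summed over its locus. In UUO urine the lowest share was 58.5%, for Pdcd6ip (chromosome 8, 121231792 to 121287110 on rn5 as listed). There NONRATG029004 measured 18.9 FPKM in UUO against 3.11 FPKM in WT urine. All features of this locus together measured 153 FPKM in WT against 55.5 FPKM in UUO urine, a log2 difference of -1.45. At Cd9 (chromosome 4, 224989634 to 225022635) NONRATG022659 was above 0 in both libraries, at 0.488 FPKM in WT and 0.595 FPKM in UUO urine. Cd63 lies on chromosome 7 (3303422 to 3305809), Cd81 on chromosome 1 (223099305 to 223115423), Cd82 on chromosome 3 (89026107 to 89070621), Tsg101 on chromosome 1 (104015887 to 104044693), Sdcbp on chromosome 5 (24256074 to 24283042), Flot1 on chromosome 20 (5524707 to 5535214) and Vps4b on chromosome 13 (31975734 to 32000971).

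The stretches before the start of Cd9, Cd63 and Cd81, which were all higher in UUO urine, are shown with that of Pdcd6ip, which was lower, so that their letters can be compared. Each is the 250 bases before the start of the gene, from RefSeq on GRCr8, a later build than that of the table. Capitals mark the GC box (GGGCGG, the motif of Sp factors) and the E-box CACGTG, the core of the element bound by TFEB, a regulator of lysosomal genes. The regions are chr4:159975359-159975608 (minus strand) for Cd9, chr7:1921894-1922143 (plus) for Cd63, chr1:207665047-207665296 (plus) for Cd81 and chr8:122524994-122525243 (minus) for Pdcd6ip.
Cd9: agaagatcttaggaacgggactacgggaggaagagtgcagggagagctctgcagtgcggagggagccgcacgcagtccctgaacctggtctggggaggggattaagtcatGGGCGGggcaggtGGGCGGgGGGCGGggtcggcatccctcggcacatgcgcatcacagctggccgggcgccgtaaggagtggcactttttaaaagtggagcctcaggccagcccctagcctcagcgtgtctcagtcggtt
Cd63: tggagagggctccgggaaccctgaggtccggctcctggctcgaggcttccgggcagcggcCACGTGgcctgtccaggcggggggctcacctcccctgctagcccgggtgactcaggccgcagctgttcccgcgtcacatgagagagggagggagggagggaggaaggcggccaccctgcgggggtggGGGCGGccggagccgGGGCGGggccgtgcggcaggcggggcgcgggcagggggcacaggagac
Cd81: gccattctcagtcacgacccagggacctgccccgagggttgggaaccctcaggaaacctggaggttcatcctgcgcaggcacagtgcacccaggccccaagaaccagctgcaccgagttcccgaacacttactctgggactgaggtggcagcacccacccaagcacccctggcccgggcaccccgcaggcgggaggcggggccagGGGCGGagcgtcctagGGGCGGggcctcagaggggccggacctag
Pdcd6ip: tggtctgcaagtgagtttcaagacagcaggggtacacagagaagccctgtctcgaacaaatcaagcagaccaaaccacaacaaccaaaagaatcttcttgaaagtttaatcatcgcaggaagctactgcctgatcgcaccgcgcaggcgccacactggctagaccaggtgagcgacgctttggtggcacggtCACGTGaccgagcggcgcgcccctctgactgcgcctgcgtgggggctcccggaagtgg

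A sequence was found for 7 of the 9 matched members, without Cd82 and Sdcbp. Cd9, Tsg101 and Flot1 held 3 GC boxes each, Cd63 and Cd81 held 2 each, and Pdcd6ip and Vps4b held 0. Tsg101 and Flot1 had lower FPKM in UUO urine as deposited, so GC boxes stood before genes of both directions on that scale only. The direction of Tsg101 and Flot1 turned with the scaling. Thus 5 of 7 held a GC box on either strand, against 30.5% of 33469 promoters. CACGTG stood in Cd63, 190 to 185 bases before the start, and in Pdcd6ip, 58 to 53 bases before it, so in 2 of 7 members against 5.59% of promoters. The Smad3 motif that the study searched (CAGACA) was found in Tsg101 alone of the 7, against 17.2% of promoters. The study looked in a far longer window, before up-regulated lncRNAs, so its search and this one are not alike. CCAAT was found in Vps4b alone (34.02% of promoters) and TATAAA in 0 of 7 (12.9%). The GC content of the 7 stretches was 56.4% to 76.4%, against a median of 51.2% over all promoters. A gene higher and a gene lower in UUO urine thus shared CACGTG, and these matches are letters in a window, not binding sites.

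The tetraspanin family as a whole was counted next, members included. Of 29 tetraspanins on the list 27 were matched and 22 reached 1 FPKM in WT or UUO urine. In UUO urine 11 were 2-fold higher, against 25.7% of all genes, and 1 was 2-fold lower, against 36.5%. Of these 22, 7 passed through UUO urine alone and could only be higher. Among the 15 with FPKM of at least 1 in both libraries 4 were 2-fold higher (26.7%), against 7.01% of 7218 such genes, and 1 was lower, against 42.8%. Their median difference was 0.50, against -0.81. Without the 4 members 18 genes were left, of which 9 were higher, 6 of them through UUO urine alone, and 1 was lower. Of the 12 such genes detected in both libraries 3 were higher, against 7.01% of all genes, and 1 was lower, against 42.8%. Their median was 0.25, against -0.81.

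The highest tetraspanin in UUO urine was Upk1a, at 170 FPKM in WT and 277 FPKM in UUO urine. Upk1a is a uroplakin known from plaques on the surface of the urothelium. This urine was drawn from the ureter. Its relative Upk1b, the highest in WT urine, was at 216 FPKM there and 136 FPKM in UUO urine, and rescaling UUO values by more than 1.59 turns that order. Besides Cd81, the genes detected in both libraries that passed 2-fold upward were Tspan3 (6.99 to 17.3), Tspan12 (10.6 to 22.3) and Tspan33 (8.50 to 18.3). Tspan5, which guides the protease Adam10 to the cell surface, was the 1 that passed downward, at 10.9 in WT and 2.99 in UUO urine. Cd151, Tspan4 and Tspan11 were listed at 0 in both libraries.

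Cd53 and Cd37, tetraspanins of white blood cells, were listed at 0 in WT urine and at 7.66 and 2.08 FPKM in UUO urine. Leukocyte markers were mixed. Of 9 such markers 6 were listed at 0 in WT urine, and 0 of the 9 in UUO urine. Among the 6, Ptprc, Cd68 and Itgam reached 3.33, 7.87 and 1.63 FPKM in UUO urine, and S100a9 and S100a8 reached 71.7 and 27.0 FPKM. Summed over the 9, these markers measured 79.6 FPKM in WT against 205 FPKM in UUO urine, with S100a9 and S100a8 holding most of the rise. The 3 markers above 0 in WT urine differed in direction as deposited: Lyz2 went from 7.55 to 26.5, Cd14 from 2.05 to 1.31 and Cd74 from 69.99 to 64.8, and the median of those 3 was -0.11. Red-cell markers moved further, from 3207 FPKM in WT to 88874 FPKM in UUO urine, summed over 7 genes. Of the urothelial markers, 7 were matched, only Krt5 was listed at 0 in WT urine, and they summed to 1174 FPKM in WT and 1691 FPKM in UUO urine. All 10 tubule markers were above 0 in both libraries, and summed to 226 FPKM in WT and 170 FPKM in UUO urine. A factor above 1.33 on UUO values turns the order of these sums, and all 4 rescalings used a larger one. As deposited 5 of the 10 lay within 2-fold. In UUO urine 3 were 2-fold lower, against 36.5% of all genes, and 2 were 2-fold higher, against 25.7%. Both counts lie near the background. The lower ones were Slc34a1 (32.7 to 6.24), Lrp2 (38.7 to 5.995) and Cubn (4.29 to 0.706). The higher ones were Calb1 (12.6 to 35.6) and Cdh16 (4.48 to 12.01). The part of leukocytes, red cells, urothelium and tubule cells in the levels of Cd63, Cd81, Cd9 or Pdcd6ip was not tested. In bulk RNA fewer cells of a type and less RNA per cell cannot be told apart.

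The wider ESCRT machinery lay lower in UUO urine as deposited, close to the background. Of 35 genes on the 4 ESCRT lists 31 were matched, all of them at 1 FPKM or more in WT or UUO urine. Of these 10 were 2-fold lower (32.3%, against 36.5% of all genes), 1 was 2-fold higher and 20 lay within 2-fold, with a median of -0.71 against -0.51. The count of lower genes is therefore not a result about this machinery, and by the median ratio 4 were higher and 2 lower. Of the 30 genes detected in both libraries 0 passed 2-fold upward and 10 downward, against 7.01% and 42.8% of all such genes.

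**Figure D4:**
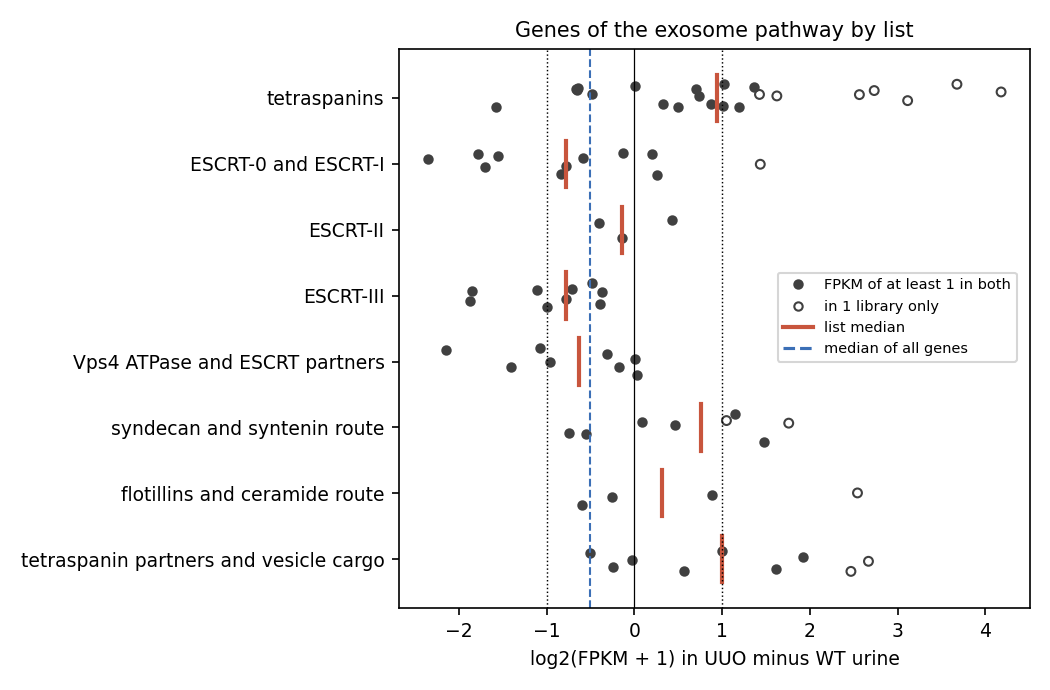
Difference of log2(FPKM + 1), UUO minus WT, of every gene of the 8 exosome lists that reached 1 FPKM in WT or UUO urine, where filled points reach it in both, open points in 1 library only, the red bar is the list's median and the dashed line the median of all genes (-0.51). The ESCRT lists centre between -0.78 and -0.14 and the tetraspanins at 0.94, with 7 open points.

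Within ESCRT-0 and ESCRT-I, which gather cargo, 4 of 11 genes were 2-fold lower (36.4%, level with the 36.5% of all genes) and 1 was higher. Hgs, the ESCRT-0 subunit that binds ubiquitin, measured 117 FPKM in WT against 22.04 FPKM in UUO urine, a difference of -2.36. Mvb12a, an ESCRT-I subunit and the highest of the list, went from 127 to 38.3. Its paralog Mvb12b, the 1 higher gene, was listed at 0 in WT and at 1.70 in UUO urine and could only be higher. The 3 ESCRT-II genes all lay within 2-fold, with Snf8 the highest at 56.4 in WT and 42.6 in UUO urine.

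ESCRT-III forms the filament. Of its 9 matched genes 3 were 2-fold lower (33.3%, near the 36.5% of all genes) and 0 higher. Chmp3, the highest, measured 336 FPKM in WT against 92.5 FPKM in UUO urine. Chmp7, which also acts in resealing the nuclear envelope, had the greatest difference of the list at -1.88, from 62.8 to 16.4. Chmp4c, a relative of the unmatched Chmp4b, went from 42.6 to 30.3. Among 8 genes of Vps4 and its partners 3 were lower (37.5%, again near the background): Pdcd6ip, Vta1 (an activator of Vps4, 44.1 to 15.99 FPKM) and Vps4a (32.7 to 15.02 FPKM). Vps4b and Vps4a are close relatives and differed in size, with Vps4b at -0.18 and Vps4a at -1.07. Pdcd6, the calcium sensor that binds Alix, measured 33.4 FPKM in WT against 33.5 FPKM in UUO urine, a level that differed little while that of Alix did.

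As a sum free of scaling, the tetraspanin list held 0.392 times the FPKM of the ESCRT lists in WT and 1.13 times in UUO urine. Leaving out Upk1a and Upk1b gave 0.168 in WT and 0.591 in UUO urine, and without the members as well 0.108 and 0.307, 2.84-fold apart. The last pair rests on 21 tetraspanins and 28 ESCRT genes, none of them members. From WT to UUO urine this tetraspanin sum went from 164 to 213 FPKM and the ESCRT sum from 1519 to 692 FPKM. As deposited the gap thus lies mostly in the ESCRT sum. Each rescaling raises both UUO sums, so this split depends on the scaling while the ratio does not. Tetraspanins listed at 0 in WT urine could only add to the gap. No like ratio was taken for other gene lists, so how common such a gap is was not tested.

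The syndecan and syntenin route had a median of 0.76 over 8 genes, with 4 past 2-fold upward, against 25.7% of all genes, and 0 downward. Of the 4, Sdc3 and Sdcbp2 passed through UUO urine alone. Over the 6 genes detected in both libraries 2 were higher, against 7.01% of all such genes, and the median was 0.28. Sdc1, a syndecan of epithelial cells, measured 65.8 FPKM in WT against 147 FPKM in UUO urine. Sdc4, another syndecan and the highest of the list in WT urine, was nearly level at 139 in WT and 147 in UUO urine. Sdc3 and Sdcbp2 were listed at 0 in WT and at 2.39 and 1.07 in UUO urine. Pld2, a phospholipase of the syntenin route, went from 2.78 to 9.53, while its partner Arf6 went from 116 to 68.9.

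Of the flotillins and the ceramide route, 4 of 5 genes reached 1 FPKM. Flot2, the partner of Flot1, measured 19.2 FPKM in WT against 15.96 FPKM in UUO urine, a difference of -0.25, so that both flotillins lay within 2-fold. Smpd3, the neutral sphingomyelinase that makes ceramide for exosomes, was listed at 0 in WT and at 0.0244 in UUO urine, below the detection limit in both. Smpd2, another neutral sphingomyelinase, was at 0.000103 FPKM in WT and 4.83 FPKM in UUO urine. Its WT value is far below the 0.473 FPKM of 1 fragment on 1 kilobase. Smpd2 thus passed through UUO urine alone and could only be higher.

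Among partners and cargo of tetraspanins 5 of 9 genes were 2-fold higher and 0 lower, against 25.7% and 36.5% of all genes, and 2 of the 5 passed through UUO urine alone. Of the 7 genes detected in both libraries 3 were higher, against 7.01% of all such genes, with a median of 0.56. Itgb1, the integrin chain that binds Cd9 and Cd81, measured 6.58 FPKM in WT against 27.6 FPKM in UUO urine. Itga6, an integrin chain that pairs with it, went from 10.9 to 22.8. Lamp1, a lysosomal membrane protein that lies with Cd63, went from 31.0 to 97.2, and Lamp2 from 14.8 to 10.1. Prom1 and Igsf8, a direct partner of Cd9 and Cd81, were listed at 0 in WT and at 5.36 and 4.53 in UUO urine. Epcam, an epithelial adhesion protein, was the highest of the list at 72.5 in WT and 107 in UUO urine.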

How the data were processed

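Urine RNA of 1 WT (sham-operated) and 1 UUO library was measured. Per the labels, the authors aligned reads to rn5 with TopHat2 2.0.9 and Bowtie2 2.0.6 and used Cufflinks 2.1.1 and Cuffdiff 2.1.1. The authors deposited 1 FPKM value for each feature in each library; the total they scaled to is not stated. The authors' columns of fold changes, p-values and q-values were not used. Symbols came from the RefSeq table of GRCr8, which matched 99.1% of the number-only IDs. Number-only IDs whose symbol is one of the 10 were taken as members.

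FPKM of at least 1 counted as detected. Differences were taken on the log2(FPKM + 1) scale and counted at 1 or more in size, with no test. Python 3.11.15 with pandas 2.3.3 was used, and the steps were tested on simulated data.

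The table gives no counts. Values of assembled features alone at their locus and 400 to 1200 bp long were fitted as whole fragments: 93.5% of 186 WT values and 99.4% of 3530 UUO values were whole to within 0.1 fragment, at normalising totals of 2116000 and 2440000 fragments. These totals need not be the sequencing depth.

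Named genes are all members and, of each list, the gene with the highest FPKM and those with the greatest difference in each direction past 2-fold; other named genes were chosen after their values were seen. Members and lists were chosen with earlier results of these data known.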

Additional observations from a re-analysis of the deposited data

Results flagged for a closer look

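Noncoding database entries that overlap the members were outside the comparisons of genes. Of these 49 entries, 5 had an FPKM of at least 1 in UUO urine and were at least 2-fold higher there, on the log2(FPKM + 1) scale. Over the whole series 25143 features were detected in UUO urine, against 14941 in WT urine. At the locus of Pdcd6ip, NONRATG029004 measured 18.9 FPKM in UUO against 3.11 FPKM in WT urine, opposite in direction to the gene. The other 4 were listed at 0 in WT urine. At the locus of Sdcbp, NONRATT042609 had an FPKM of 4.16 and NONRATT042606 of 1.48 in UUO urine. At the locus of Cd63, NONRATT048979 had an FPKM of 3.26, and at the locus of Flot1, NONRATT033591 had an FPKM of 1.03 in UUO urine. In the other direction, 2 such entries were at least 2-fold lower in UUO urine: NONRATT037672 at the locus of Cd82, at 3.51 FPKM in WT and listed at 0 in UUO urine, and NONRATT033588 at the locus of Flot1, at 2.62 FPKM in WT and 0.657 FPKM in UUO urine. These differences were not tested. The share of all noncoding entries that pass 2-fold is not given here, so neither count is a result about these loci.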

How the results depend on the processing

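No paired analysis was possible because WT and UUO are single libraries. The 9 single differences were recomputed under 7 alternatives each, giving 63 values, of which 41 kept their sign and their side of 2-fold, 22 changed one of them, and 0 of the differences past 2-fold changed sign. Against 2 members past 2-fold upward, there was 1 with a pseudocount of 10, 1 at a 4-fold limit, and 1 among members above 0 in both libraries (an alternative chosen after seeing the data). There were 4 after rescaling to equal sums over all features. There were 5 with the median ratio, 5 with the 75th percentile and 5 with equal sums over genes without haemoglobin. The median over the members, 0.32 as deposited, was 1.24, 1.14 and 1.17 under these last 3 rescalings, which each raise UUO values by 1 factor. The 1 member past 2-fold downward, Pdcd6ip, ranged from -2.17 to -1.23. No setting joined its locus sum with a rescaling, which would bring that sum within 2-fold. Cd9 ranged from 1.44 with a pseudocount of 10 to 7.43 with 0.1, because it is listed at 0 in WT urine. Without replicates, and with depth known only through fitted steps, no interval can be given for these values.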
